A study of Mus musculus with 17 samples.

Results

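The Zfp genes are the mouse genes named as a zinc finger protein followed by a number, from Zfp1 and Zfp2 upwards. They were chosen by name, as symbols made of Zfp and digits. Of 17373 gene names in the RNA and H3K9ac tables, 324 fitted the rule. The RNA table listed 282 of them among 12334 genes. The H3K9ac table tied 299 promoter regions to 289 of them, where a promoter region is one whose distance to the nearest transcription start site is at most 1000 bases. In all, 257 Zfp genes had both an RNA value and a promoter region.

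The livers came from C57BL/6 mice, a common inbred laboratory strain, that had eaten for 10 weeks either a high-fat diet (HFD), with 60% of its calories from fat, or a control diet (CD), with 18%. Polyadenylated RNA was sequenced from 4 CD and 4 HFD livers (A to D in each diet). Chromatin carrying histone H3 acetylated at lysine 9 (H3K9ac), a mark of active promoters, was sequenced from 3 CD livers (A, C and D) and 3 HFD livers (A, B and D). An input library and 2 libraries of open chromatin, all from CD livers, were not analysed here. No genotype other than the strain is given, and the labels state no age and no sex. They also name no substrain, litter or cage, and if any of these followed the diets it cannot be told apart from diet, also for changes shared by neighbouring genes such as those around Zfp810.

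Most of these genes encode proteins of the C2H2 type, in which a chain of small zinc-binding loops, the fingers, can bind a DNA sequence. Many also carry a KRAB domain, which recruits the corepressor Trim28 and, through it, the methyltransferase Setdb1, so that the bound site gains methylation on the same histone lysine whose acetylation was measured here. Such proteins are known for keeping retroelements silent and for protecting imprinted genes. Others under the same name are activators, ubiquitin ligases, ribosome quality-control factors or RNA-binding proteins, so the name marks a structural motif and not a single function.

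Total RNA counts were 31802893 to 37596560 per library and total H3K9ac counts 9255635 to 12149497. Marker genes of hepatocytes, the main cell type of liver, summed to 125400 to 140900 CPM (counts scaled to library size) in CD and 138200 to 165100 in HFD, with all 13 measured and none at 0. Markers of other liver cells summed to 211 to 290 CPM in CD and 179 to 346 in HFD for sinusoidal endothelium (12 of 12 measured), to 233 to 339 and 180 to 476 for Kupffer cells and macrophages (14 of 15), and to 318 to 378 and 234 to 467 for stellate cells (13 of 14). Bile duct cell markers summed to 84.6 to 100.5 CPM in CD and 57.4 to 83.7 in HFD (6 of 7), and those of lymphocytes to 11.7 to 13.9 and 10.5 to 21.9 (6 of 12), and no measured marker was at 0 in any library. In bulk liver, fewer cells of a type and less RNA per cell cannot be told apart.

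The Zfp genes were transcribed at low levels in these livers. Their median level was 0.79 log2 FPKM, against 2.39 for all 12334 genes, and 13.8% of them lay above the median level of all genes. With all genes divided by level into 4 classes of equal size, the lowest class held 134 of the 282, the second 109, the third 33 and the highest 6. FPKM scales reads to gene length and library depth, so these levels can be compared between genes.

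**Figure D1:**
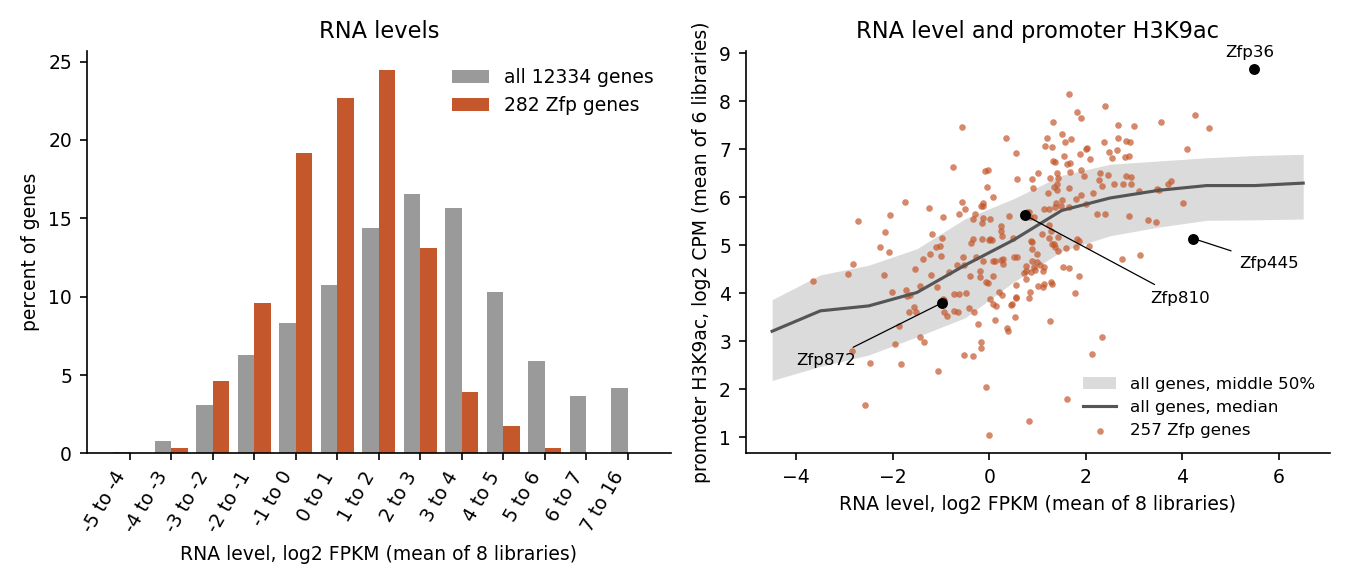
Left, the percent of genes in each step of RNA level (log2 FPKM, mean of 8 libraries), for all 12334 genes in grey and 282 Zfp genes in orange. Right, promoter H3K9ac (log2 CPM, mean of 6 libraries) against RNA level for 257 Zfp genes as points (black where named), with the median and middle 50% of all genes in grey. The Zfp genes peak between 1 and 2 log2 FPKM, and in both sets the mark is higher where the RNA level is higher.

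Zfp36, at 5.48 log2 FPKM, had the highest level of all Zfp genes. It encodes tristetraprolin, which binds AU-rich elements in messenger RNAs and hastens their decay. Zfp706 followed at 4.54, then Zfp91 at 4.26, a ubiquitin ligase of noncanonical NF-kB signalling, Zfp445 at 4.23, a KRAB protein that maintains imprinted methylation together with Zfp57, and Zfp598 at 4.09, a ubiquitin ligase that marks collided ribosomes. Across the 8 libraries the SD of log2 FPKM was 0.50 for Zfp36, 0.10 for Zfp706, 0.14 for Zfp91, 0.28 for Zfp445 and 0.15 for Zfp598. Neighbours in this order from Zfp91 to Zfp598 lay within that spread of each other, while Zfp36 stood above Zfp706, and Zfp706 above Zfp91, by more than the SD of Zfp706. The lowest levels were those of Zfp462 at -3.65, Zfp248 at -2.92, Zfp449 at -2.85, Zfp651 at -2.82 and Zfp697 at -2.72 log2 FPKM. Zfp462 had 10 to 48 reads per library and Zfp248 had 5 to 26, so the changes of these genes rest on few reads.

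Promoter acetylation was found at nearly all of the Zfp genes with RNA. A promoter region was present for 91.1% of them, against 82.0% of all genes in the RNA table. Taking for each gene its promoter region of highest signal, the median was 4.95 log2 CPM over the 289 Zfp genes with one and 5.29 over all genes with one. These regions were also shorter, with a median length of 1073 bases against 1361. Unlike FPKM, log2 CPM is not scaled to length, so a longer region can hold more reads. The part of length in these differences was not tested. By class of RNA level, the Zfp medians were close to those of all genes in the lower classes and above them in the upper ones: the median was 4.45 log2 CPM for Zfp genes and 4.41 for all genes in the lowest class of RNA level, 5.67 and 5.73 in the second, 6.43 and 6.08 in the third, and 7.22 and 6.21 in the highest, where only 6 Zfp genes stand. Across genes, Spearman's rho between RNA level and promoter signal was 0.588 over 257 Zfp genes and 0.414 over 10112 genes. These are descriptions: genes are not independent replicates, and both values of a gene come from the same few livers.

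The highest promoter signals belonged to Zfp36 (8.67 log2 CPM over a region of 9975 bases), Zfp710 (8.15 over 4868 bases), Zfp592 (7.89 over 2445 bases), Zfp276 (7.77 over 4949 bases) and Zfp91 (7.71 over 2552 bases). This order is of reads over the whole region, not scaled to its length, and long regions are favoured in it. A set of 32 Zfp genes had a promoter region but no place in the RNA table, with a median signal of 3.23 log2 CPM. Among them were Zfp57, the imprint guardian (3.21 log2 CPM), Zfp423, which commits cells to the fat lineage (6.46), and Zfp521, its antagonist (3.18). The table held no gene with a mean count under 13.9 per library, and a gene can be absent for few reads or because the table lists it under another name or not at all, which was not tested.

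For 25 Zfp genes with RNA no region carried their name within 1000 bases. In 13 of these the region spanned the outer end of the gene but was named for another gene that starts there. The region over the start of Zfp146 was named for Gm5113, that of Zfp524 for Fiz1, that of Zfp277 for Dock4, that of Zfp942 for Zfp943 and that of Zfp511 for Tubgcp2. A further 3 had a region within 1000 bases that did not span the gene end, and 9 had none that near. Zfp652 was among these 9, at 2.56 log2 FPKM, with its nearest region 10890 bases away. The gene names of regions are therefore those of the nearest start site only.

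The Zfp genes cluster in the genome. Chromosome 7 held 73 of the 282, or 25.9%, against 7.48% of all genes in the RNA table, chromosome 17 held 35 (12.4% against 5.07%) and chromosome 13 held 26 (9.22% against 3.67%). With gaps of at most 100000 bases between neighbouring Zfp genes, 150 of the 282 stood in 36 groups of at least 2. Groups of at least 5 numbered 14 and held 95 genes. The largest, on chromosome 7 (mm10, 29768552 to 30169727), held 13: Zfp84, Zfp30, Zfp790, Zfp940, Zfp420, Zfp27, Zfp383, Zfp74, Zfp568, Zfp14, Zfp566, Zfp260 and Zfp146. Close copies can share reads, and the treatment of such reads in the authors' counting is not given in the sources used, so values of clustered Zfp genes are uncertain to that extent.

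Sequence windows around the start sites, from 250 bases before to 50 after (RefSeq, GRCm38.p6), were matched for 233 of the 282 genes, giving 284 windows beside 12100 windows of 9462 genes in the RNA table. Those of the Zfp genes were poorer in CpG, with a median of 16 CpG per window against 20, and in G and C, with 55.3% against 60.3%. The Sp motif GGGCGG, searched on both strands as were all motifs, stood in 46.1% of the Zfp windows and 60.9% of all windows. The E-box CACGTG stood in 6.69% and 9.89%, the Ets motif CCGGAAGT in 10.9% and 7.8%, the Yy1 motif AAGATGGCG in 3.52% and 2.97%, and the Creb motif TGACGTCA in 3.17% and 2.94%. The D-box TTATGTAA stood in 0% and 0.562%, and its variant TTATGCAA in 1.06% and 0.686%.

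ACTACAATT is the core that is bound by Zfp143, itself a Zfp gene and an activator of small nuclear RNA genes and of many other promoters. It stood in 11 windows of 10 Zfp genes, 3.87% of their windows, against 0.744% of all windows. The stretches around it are shown for 4 genes because the letters beyond the searched core also recur (motif in capitals, 5′ to 3′ on the strand that carries it; GRCm38.p6, the same assembly as mm10).
Zfp108, chr7:24254719-24254747, minus strand: tggctccagaACTACAATTcccagaatgc
Zfp93, chr7:24270339-24270367, minus strand: tggcgttggaACTACAATTcccagaattc
Zfp180, chr7:24081867-24081895, minus strand: gctcaatggaACTACAATTcccagaactc
Zfp692, chr11:58307011-58307039, plus strand: actaaggctaACTACAATTcccggcaggc
In 9 of the 10 genes the core was followed by ccc, which was not part of the search, and in 8 of the 10 it lay within 100 bases of the start site. Zfp180, Zfp111, Zfp108 and Zfp93 of this set stand in the same group of 9 Zfp genes on chromosome 7, so these windows are not independent of each other. A match is a run of letters and no measurement of binding. The RNA of Zfp143 was 7.89 ± 0.80 CPM in CD and 7.04 ± 0.92 in HFD (SD, n = 4 each), a log2 change of -0.17 (adjusted p = 0.571).

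The first comparison asked which Zfp genes differed in RNA between the diets. Few did: 2 of the 282 fell in HFD (Zfp810 and Zfp740) and 1 rose (Zfp281). Among all 12334 genes 3.64% fell and 3.63% rose at the same threshold, an adjusted p under 0.05 in edgeR's quasi-likelihood test. All 4 HFD values lay below all 4 CD values in 15 Zfp genes, against 7.01% of all genes, and above them in 5, against 7.26%. At an unadjusted p under 0.05 the count was 29 of the 282 (22 lower and 7 higher in HFD), or 10.3%, against 20.4% of all genes. A change is given on the log2 scale, positive where HFD was the higher diet, and its standard error (SE) is that of the fit.

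**Figure D2:**
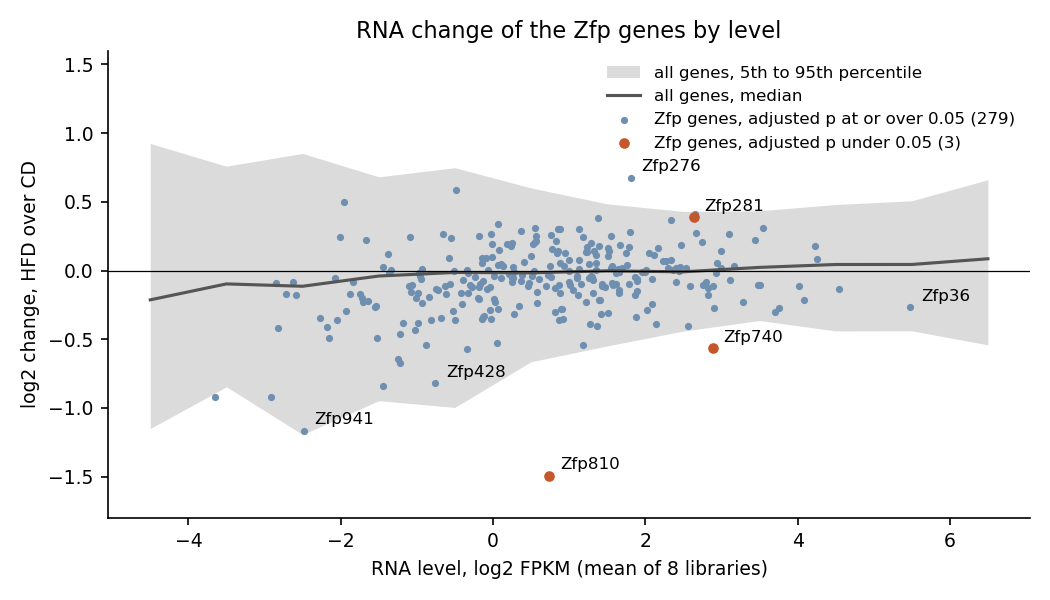
RNA change between the diets (log2, HFD over CD) against RNA level (log2 FPKM, mean of 8 libraries) for 282 Zfp genes, orange where the adjusted p was under 0.05, with the median and the 5th to 95th percentile of all genes in grey. Zfp810 at -1.49 and Zfp740 at -0.57 lie below the grey band, while most of the points lie close to 0.

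Zfp810 gave the largest change of any Zfp gene. It is a C2H2 zinc finger gene of chromosome 9 (mm10, 22276748 to 22307638, minus strand). Its RNA was 8.78, 9.49, 7.77 and 9.98 CPM in CD A to D and 2.76, 3.53, 3.38 and 3.13 CPM in HFD A to D. The lowest CD liver was thus above the highest HFD liver, with a wide gap between the diets and little spread within HFD. The means were 9.01 ± 0.96 and 3.20 ± 0.34 CPM (SD, n = 4 each), a log2 change of -1.49 (SE 0.14, adjusted p = 1.77e-04). Behind these values stood 262 to 356 reads per CD library and 96 to 117 per HFD library. The call held in each of 13 alternatives, with log2 changes from -1.56 to -1.44.

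Zfp740, a C2H2 gene of chromosome 15 (mm10, 102203645 to 102215610, plus strand), had 36.5, 43.5, 35.7 and 39.1 CPM in CD A to D and 25.1, 23.3, 29.3 and 27.01 CPM in HFD A to D. The diets did not overlap. The log2 change was -0.57 (SE 0.11, adjusted p = 0.0101), and it passed the threshold in each of 14 alternatives, with adjusted p up to 0.0442. Zfp740 lies 14.6 kb from Csad, which runs on the other strand and encodes an enzyme of taurine synthesis. The RNA of Csad was 610 ± 89.3 CPM in CD and 35.1 ± 7.27 in HFD (log2 change -4.12, adjusted p = 3.51e-06). Within 40 kb of the Zfp740 start, 4 of 21 H3K9ac regions passed the threshold, all of them named for Csad and lower in HFD, with log2 changes from -2.50 to -0.75. The region over the Zfp740 start had 117.1, 119.7 and 116.4 CPM in CD A, C and D and 104.6, 106.2 and 129.8 in HFD A, B and D, a log2 change of -0.06 (adjusted p = 0.882). Another region, 474 bases from the nearest start site and weak at 0.28 log2 CPM, gave -0.90 (adjusted p = 0.481).

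Zfp281 binds GC-rich promoter elements and is known for restraining pluripotency genes and for its part in epithelial-mesenchymal transition. Its RNA was 26.2, 31.5, 28.9 and 27.9 CPM in CD A to D and 37.1, 38.6, 41.1 and 33.3 CPM in HFD A to D. Every HFD liver was above every CD liver, but the nearest were close, 31.5 against 33.3. The log2 change was 0.39 (SE 0.10, adjusted p = 0.0432). This call was fragile, being lost in 10 of 14 alternatives, with adjusted p = 0.107 on library totals and adjusted p = 0.0548 to 0.163 when any single library other than HFD D was left out. Its promoter region gave 126 ± 8.17 CPM in CD and 126.9 ± 0.22 in HFD (SD, n = 3 each), a log2 change of 0.01 (adjusted p = 0.985).

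**Figure D3:**
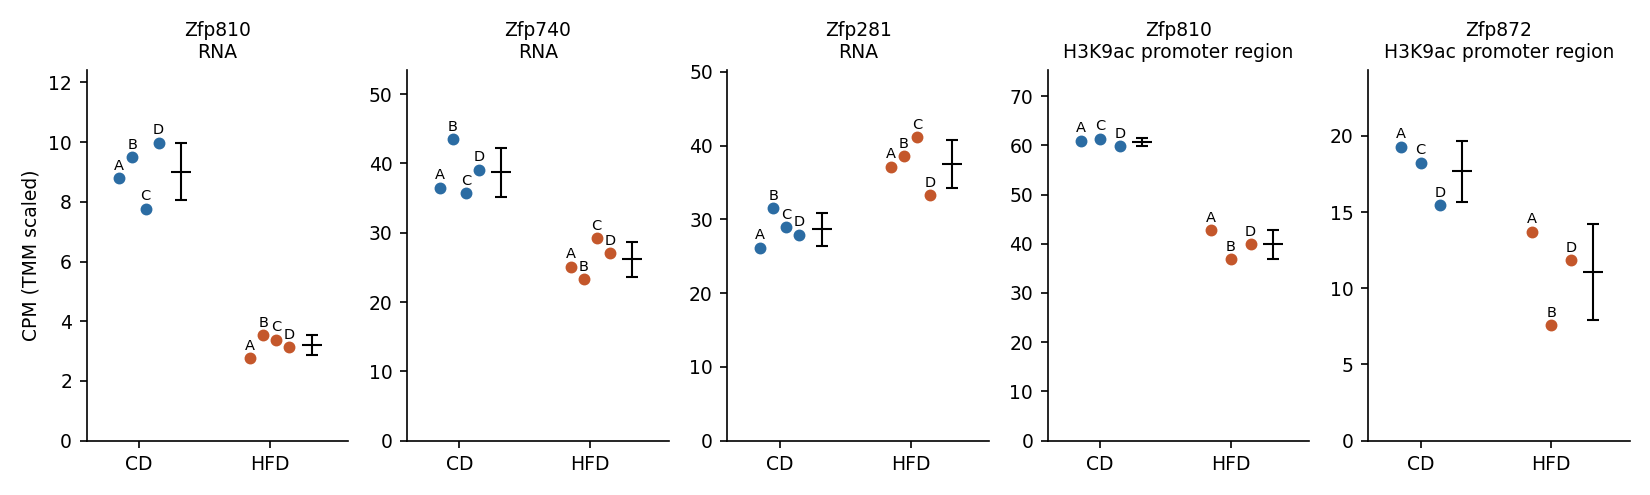
CPM (TMM scaled) in each library, by letter, for the RNA of Zfp810, Zfp740 and Zfp281 and for the H3K9ac promoter regions of Zfp810 and Zfp872, with CD in blue and HFD in orange, and the mean ± SD in black (n = 4 per diet for RNA, 3 for H3K9ac). In all 5 panels the diets do not overlap, and the gap is widest, relative to the values, for the RNA of Zfp810.

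Next by p among the lower genes were Zfp358, Zfp839, Zfp940 and Zfp867. Zfp358 had 9.23 to 11.1 CPM in CD and 7.27 to 8.24 in HFD (log2 change -0.39, adjusted p = 0.0615), and Zfp839 10.7 to 11.4 in CD and 7.45 to 9.85 in HFD (-0.40, adjusted p = 0.0672). Both sets were without overlap between the diets. Zfp940 gave -0.84 (adjusted p = 0.0736) and Zfp867 gave -0.53 (adjusted p = 0.0781). Among the higher genes the order was Zfp276 (0.68, adjusted p = 0.0745), Zfp787 (0.41, adjusted p = 0.0895), Zfp108 (0.58, adjusted p = 0.0897), Zfp945 (0.31, adjusted p = 0.186) and Zfp944 (0.28, adjusted p = 0.207). Zfp276 overlapped between the diets, with 11.6 to 17.9 CPM in CD and 17.0 to 30.1 in HFD. The authors' deposited table listed 11 Zfp genes with a false discovery rate under 0.05, of which 8 were lower and 3 higher in HFD, against 10.2% of all genes in that table.

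Taking all 282 genes, the median log2 change was -0.06, against 0.01 for all genes, and 62.4% of the changes were below 0, against 48.1%. Single livers differed in this. Relative to the CD mean, the median over Zfp genes was -0.16 in HFD A and -0.06 in HFD B, and 0.03 in HFD C and 0.00 in HFD D. The CD libraries ran from -0.03 to 0.03. Without HFD A the median change was -0.04. In HFD A the stellate cell, macrophage and endothelial markers were also the lowest of all libraries, at mean log2 deviations of -0.73, -0.69 and -0.48. In HFD B these sets stood at -0.59, -0.07 and -0.24, and in HFD C at -0.05, 0.10 and 0.57. In HFD D, where the Zfp median was 0.00, they stood at 0.26, 0.73 and 0.51. The lymphocyte markers stood at 0.02 in HFD A, 0.19 in HFD B, 0.13 in HFD C and 0.68 in HFD D. The bile duct cell markers ran otherwise: they stood at -0.97 in HFD A but also at -0.95 in HFD C, where the Zfp median was 0.03, and at -0.63 in HFD B and -0.48 in HFD D, with 1 of the 6, Sox9, past the threshold. The hepatocyte markers stood at 0.38 in HFD A, 0.34 in HFD B, 0.10 in HFD C and 0.10 in HFD D, with 1 of the 13, Pck1, past the threshold. The part of cell composition in the median was not tested.

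**Figure D4:**
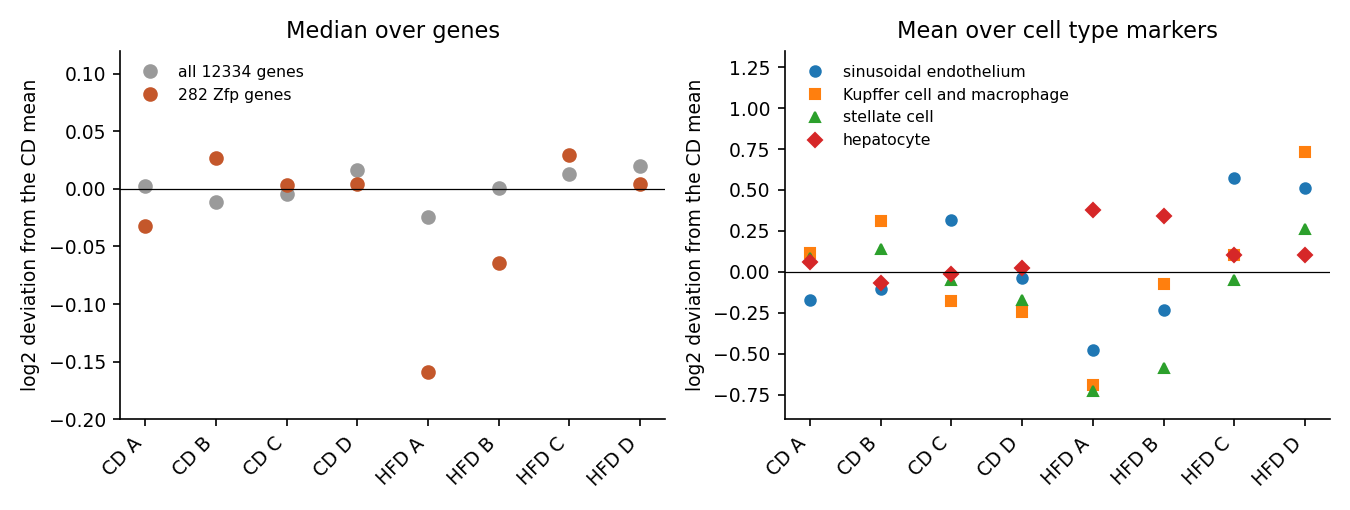
Left, the median log2 deviation from the CD mean in each RNA library over 282 Zfp genes (orange) and all 12334 genes (grey). Right, the mean log2 deviation over the markers of 4 liver cell types in the same libraries. The Zfp median is lowest in HFD A at -0.16, where the 3 non-parenchymal marker sets are lowest as well.

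Of the 95 Zfp genes in groups of at least 5 neighbours, 47 (49.5%) had a log2 change below 0, and of the other 187, 129 (69.0%). This difference was not tested, and neighbouring genes are not independent. Over the 14 groups the median change ran from -0.20 to 0.13.

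By role, counts of calls stand beside the shares of all 12334 genes in edgeR: 3.64% lower, 3.63% higher and 20.4% at an unadjusted p under 0.05. DESeq2 called more of the 12334, 1405 in all, with 689 lower and 716 higher. In lists as short as these, 0 calls says little. The members with known functions in RNA and translation were measured in full, 10 of 10. Of these 0 passed the threshold in edgeR or DESeq2, while 1 had an unadjusted p under 0.05. Their levels ran from 0.27 to 5.48 log2 FPKM and their log2 changes from -0.26 (Zfp36) to 0.14 (Zfp830, a splicing factor), with 8 of 10 below 0. Zfp36 had 68.7, 68.1, 73.2 and 154 CPM in CD A to D and 106.9, 82.4, 51.0 and 62.8 in HFD A to D. The highest value was that of CD D, and the HFD values were spread on both sides of the other CD livers. The others were Zfp106, an RNA-binding protein of muscle and nerve; Zfp207, of spindle assembly and splicing; Zfp326, of elongation and splicing; Zfp346, which binds double-stranded RNA; Zfp593 and Zfp622, of 60S ribosome maturation; Zfp598; and Zfp638, which promotes fat cell differentiation and splicing.

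Of the 6 members that silence imprinted genes and retroelements, 5 were in the RNA table and 0 passed the threshold in edgeR or DESeq2, or had an unadjusted p under 0.05. Log2 changes ran from -0.27 (Zfp809, which silences murine leukaemia virus) to 0.31 (Zfp708, which binds a retroelement family), with 1 of 5 below 0. Zfp708 had 5.16 ± 1.05 CPM in CD and 6.38 ± 0.16 in HFD (SD, n = 4 each; adjusted p = 0.332). Zfp445 was the most abundant of the set, at 111 ± 22.4 and 124.9 ± 27.03 CPM, and Zfp568, which represses a placental Igf2 promoter, had 17.3 ± 4.23 and 17.9 ± 3.86. The partners through which KRAB proteins act are no Zfp genes by name. Of 29 such genes, 27 were measured and 0 passed the threshold in RNA, Trim28 and Setdb1 included, with a median log2 change of -0.03. At that threshold 3.64% of all genes fell and 3.63% rose. DESeq2 called 1 of the 27, beside 1405 of all 12334 genes. In edgeR 4 of the 27 had an unadjusted p under 0.05, against 20.4% of all genes. Of the 26 partners with a promoter region, 1 passed the threshold there, Trim24 (log2 change 0.34, adjusted p = 0.00753). It is named here after its value was seen. Among all promoter regions 1.2% were higher and 1.53% lower in HFD.

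Of 17 widely used activators, repressors and cofactors, 16 were measured and 1 rose in edgeR, Zfp281, the call lost in 10 of 14 alternatives. DESeq2 called 2, beside 1405 of all 12334 genes, and 4 had an unadjusted p under 0.05 in edgeR. Log2 changes ran from -0.54 to 0.39, with 10 of 16 below 0. The low end was Zfp217, a repressor known as an oncogene, with 16.2 ± 2.75 CPM in CD and 11.1 ± 2.86 in HFD (SD, n = 4 each; adjusted p = 0.119). Zfp687, Zfp592 and Zfp532 form a complex with the reader protein Zmynd8. Zfp687 had 19.2 ± 1.58 and 15.2 ± 1.31 CPM (adjusted p = 0.0894), Zfp592 39.6 ± 2.36 and 37.3 ± 1.76 (adjusted p = 0.676), and Zfp532 2.13 ± 0.26 and 2.14 ± 0.53 (adjusted p = 0.993). Zfp410, which drives transcription of the remodeller Chd4, had 15.3 ± 0.27 and 15.6 ± 1.63 CPM (adjusted p = 0.919).

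Of 8 members with fat cell or metabolic phenotypes, 6 were measured and 0 passed the threshold in edgeR or DESeq2, while 1 had an unadjusted p under 0.05. Log2 changes ran from -0.64 to 0.31, with 4 of 6 below 0. Zfp69, a diabetes susceptibility gene of obese mice, had 1.30, 1.07, 0.95 and 1.46 CPM in CD A to D and 0.95, 0.75, 0.55 and 0.79 in HFD A to D. The diets did not overlap by a small margin, and the log2 change was -0.64 (adjusted p = 0.163). Zfp395 was the most abundant of this set, at 45.7 ± 16.2 CPM in CD and 56.6 ± 10.3 in HFD (adjusted p = 0.527). Zfp407, a cofactor of fat cell gene expression, had 11.03 ± 1.68 and 9.20 ± 1.58, Zfp467, which favours fat cells over bone cells, 23.1 ± 5.30 and 27.9 ± 5.19, and Zfp516, an activator of brown fat genes, 6.30 ± 1.52 and 4.92 ± 0.84.

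The second comparison asked at which Zfp promoters H3K9ac differed between the diets. Of the 299 promoter regions 2 fell in HFD, those of Zfp810 and Zfp872, against 1.53% of all promoter regions, and 0 rose, against 1.2% (edgeR's quasi-likelihood test). DESeq2 also called 0 higher, beside 293 of all 57499 regions. At an unadjusted p under 0.05 the count was 21 (14 lower and 7 higher), or 7.02%, against 10.4% of all promoter regions. The diets did not overlap in 15 regions lower in HFD, against 6.2% of all, and in 15 higher, against 8.6%. The median log2 change was 0.01, both for the 299 and for all promoter regions.

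The region over the Zfp810 start (chr9:22307012-22308241, mm10) had 60.9, 61.3 and 59.8 CPM in CD A, C and D and 42.8, 36.9 and 40.0 CPM in HFD A, B and D. All 3 HFD livers were below all 3 CD livers, which were nearly equal among themselves. The log2 change was -0.61 (SE 0.09, adjusted p = 7.50e-06), and the call held in each of 12 alternatives. Zfp810 was the only Zfp gene past the threshold in both assays. Over all 6 libraries this region stood at 5.63 log2 CPM, above the median of the Zfp promoter regions.

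The region of Zfp872, the Zfp gene at the other end of the same cluster, had 19.3, 18.3 and 15.5 CPM in CD A, C and D and 13.7, 7.56 and 11.9 in HFD A, B and D. HFD B was the lowest. The log2 change was -0.68 (SE 0.16, adjusted p = 0.00588). Without HFD B the call was lost (log2 change -0.46, adjusted p = 0.331), as it was without CD A (adjusted p = 0.0555) or CD C (adjusted p = 0.0618). It was also lost with the letter as a replicate block, which uses letters A and D (log2 change -0.44, adjusted p = 0.208) and when only regions at or above the median level were tested (adjusted p = 0.0519). The RNA of Zfp872 was 1.67 ± 0.43 CPM in CD and 1.28 ± 0.11 in HFD (SD, n = 4 each), a log2 change of -0.38 (adjusted p = 0.393).

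Zfp872, Zfp809, Zfp599 and Zfp810 stand next to each other on chromosome 9 within 120 kb. The start-site windows of the 3 that were matched are printed to show how they differ in CpG (CpG in capitals, 5′ to 3′ on the gene's strand; RefSeq, GRCm38.p6).
Zfp872, chr9:22187916-22188215, plus strand: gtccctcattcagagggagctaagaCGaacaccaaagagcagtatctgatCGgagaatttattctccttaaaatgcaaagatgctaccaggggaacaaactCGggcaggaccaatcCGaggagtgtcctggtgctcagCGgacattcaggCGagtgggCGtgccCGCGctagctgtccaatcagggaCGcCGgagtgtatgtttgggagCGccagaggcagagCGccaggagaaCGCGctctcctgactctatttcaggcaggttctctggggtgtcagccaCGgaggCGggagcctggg
Zfp809, chr9:22225453-22225752, plus strand: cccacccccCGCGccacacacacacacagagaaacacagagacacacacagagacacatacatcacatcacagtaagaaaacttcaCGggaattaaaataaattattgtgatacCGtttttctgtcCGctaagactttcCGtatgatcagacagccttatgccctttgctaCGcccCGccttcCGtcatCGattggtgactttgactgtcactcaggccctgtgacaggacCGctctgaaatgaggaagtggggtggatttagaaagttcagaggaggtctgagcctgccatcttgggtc
Zfp810, chr9:22307589-22307888, minus strand: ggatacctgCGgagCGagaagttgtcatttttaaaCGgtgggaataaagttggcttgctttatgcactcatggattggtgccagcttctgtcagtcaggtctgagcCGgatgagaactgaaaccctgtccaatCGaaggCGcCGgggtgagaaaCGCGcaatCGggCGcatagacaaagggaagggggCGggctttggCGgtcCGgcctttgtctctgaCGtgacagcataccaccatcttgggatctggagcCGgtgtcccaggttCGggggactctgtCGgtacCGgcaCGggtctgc
Zfp810 has 20 CpG in these 300 bases, Zfp872 has 17 and Zfp809 has 11, against the median of 16 over Zfp windows. All 300 bases of the Zfp810 and Zfp809 windows and 266 of the Zfp872 window lay inside the H3K9ac promoter region. The Zfp810 window held the Sp motif GGGCGG on one of its strands, and none of the other motifs searched was found in these 3 windows.

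This stretch was drawn after its values were seen, and the promoter regions of Zfp872 and Zfp810, which passed the threshold, bound it. The counts here are therefore a description. Between those end regions lay 8 others, all 8 with a log2 change below 0 (from -0.79 to -0.08, median -0.38), and 1 of the 8 passed the threshold. It was a region 2654 bases inside Zfp809, with 16.5, 17.4 and 10.4 CPM in CD A, C and D and 10.5, 9.30 and 8.90 in HFD A, B and D (log2 change -0.63, adjusted p = 0.0208). Its diets overlapped, since CD D lay at the level of HFD A, and its call was lost in 6 of 12 alternatives. The promoter region of Zfp809, the highest of the cluster in CPM, had 84.5, 92.4 and 72.2 CPM in CD and 80.6, 80.0 and 74.6 in HFD (log2 change -0.08, adjusted p = 0.811). The promoter region of Zfp599 had 14.8, 13.8 and 13.4 CPM in CD and 11.3, 10.8 and 10.2 in HFD, without overlap (log2 change -0.37, adjusted p = 0.279). Outside this stretch, within 150 kb of the Zfp810 start, 4 of 6 regions were below 0, with a median of -0.16.

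In the RNA of the same stretch, 1810064F22Rik, which lies between Zfp872 and Zfp809, also fell. It had 5.09, 6.13, 3.71 and 1.58 CPM in CD A to D and 1.41, 1.78, 1.34 and 1.76 in HFD A to D, a log2 change of -1.39 (SE 0.35, adjusted p = 0.0391). CD D lay among the HFD livers. Zfp809 varied most within CD, with 35.9, 47.4, 27.4 and 18.7 CPM in A to D, and 25.7, 27.8, 23.7 and 29.9 in HFD (log2 change -0.27, adjusted p = 0.596). CD D was thus the lowest CD liver in both of these genes, while in Zfp810 it was the highest. Zfp599 was not in the RNA table.

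**Figure D5:**
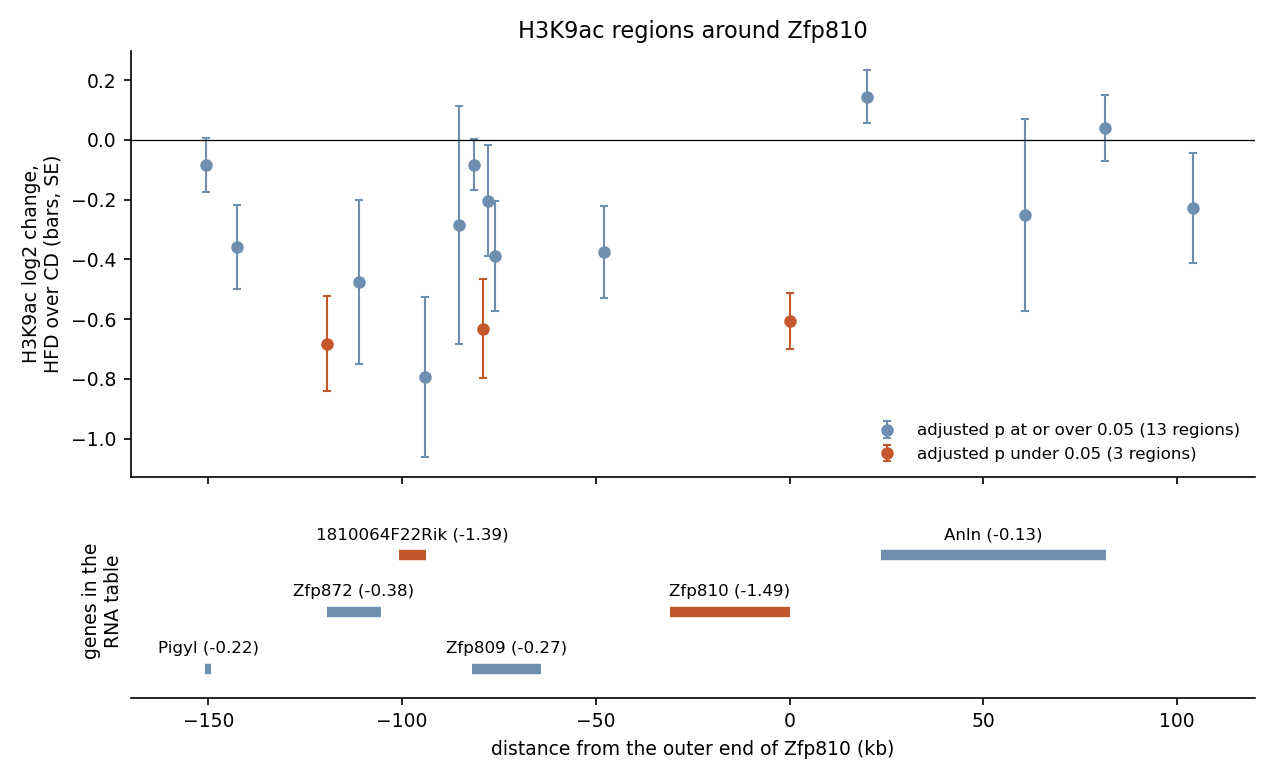
Top, log2 change of H3K9ac (HFD over CD, bars are SE) for the 16 regions within 150 kb of the outer end of Zfp810, orange where the adjusted p was under 0.05. Bottom, the genes of the RNA table at the same scale, with their RNA log2 change in brackets and orange where the adjusted p was under 0.05. From Zfp872 to Zfp810 all 10 regions lie below 0, the end regions that bound the stretch included, and 1810064F22Rik and Zfp810 are the genes whose RNA passed the threshold.

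Beyond promoters, 723 regions of any distance bore the name of a Zfp gene, and 9 of them passed the threshold, or 1.24%, against 2.39% of all regions. Besides the 3 of the Zfp810 cluster these were 6. A region 15616 bases inside Zfp839, in an intron, had 17.3, 13 and 12.6 CPM in CD A, C and D and 6.73, 6.34 and 6.70 in HFD A, B and D, a log2 change of -1.12 (adjusted p = 7.86e-06). The diets were far apart, and the call held in each of 12 alternatives. The promoter region of Zfp839 gave -0.16 (adjusted p = 0.442). Tecpr2, which starts 19.3 kb beyond the end of Zfp839, fell in RNA from 19.7 ± 3.14 to 12.5 ± 0.62 CPM (SD, n = 4 each), a log2 change of -0.66 (adjusted p = 0.0113).

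A region at -7050 bases from the Zfp575 start lay in an intron of Ethe1 and had 55.3, 61.0 and 65.7 CPM in CD A, C and D and 34.2, 31.8 and 39.8 in HFD A, B and D (log2 change -0.79, adjusted p = 4.33e-08). A region at -12932 bases from Zfp655 had 13.6, 12.2 and 10.2 CPM in CD and 6.39, 7.47 and 6.26 in HFD (log2 change -0.84, adjusted p = 0.00147). Both held in each of 12 alternatives and neither lay inside the gene it was named for. A region at -23182 bases from Zfp266 gave -0.41 (adjusted p = 0.0495), a call lost in 10 of 12 alternatives.

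The 2 regions that rose stood in neighbouring genes of chromosome 7. That in Zfp787, 3185 bases inside the gene, had 4.47, 4.25 and 3.47 CPM in CD A, C and D and 8.26, 6.52 and 6.48 in HFD A, B and D (log2 change 0.80, adjusted p = 0.0145). That in Zfp444, 11700 bases inside, had 5.27, 8.999 and 8.22 CPM in CD and 13.1, 11.6 and 10.1 in HFD (log2 change 0.64, adjusted p = 0.0365). The diets did not overlap in either. Within 40 kb of the Zfp787 start, 12 of 13 regions had a log2 change above 0, with a median of 0.22. The median over all regions was -0.003. This window was drawn because of the 2 regions that passed the threshold, and both are among the 12, so the count is a description. No other region in it passed. The calls were lost in 4 and in 5 of 12 alternatives. The RNA of Zfp787 was 10.4 ± 0.44 CPM in CD and 13.9 ± 2.39 in HFD (SD, n = 4 each), with no overlap and an adjusted p = 0.0895, and that of Zfp444 11.7 ± 1.33 and 13.1 ± 2.04 (adjusted p = 0.573).

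The third comparison set the assays side by side. An unadjusted p under 0.05 in both the RNA and the promoter region was found in 4 Zfp genes, and all 4 were lower in HFD in both: Zfp810, Zfp839, Zfp428 and Zfp746. These 4 are 1.56% of the 257, against 2.83% of all 10112 genes with both values, and 0 were higher in both, against 2.32%. Zfp428 gave log2 changes of -0.82 in RNA (adjusted p = 0.0913) and -0.21 at the promoter (adjusted p = 0.227), from 0.86 to 0.96 CPM of RNA in CD and 0.37 to 0.69 in HFD. Zfp746 gave -0.28 (adjusted p = 0.200) and -0.19 (adjusted p = 0.326). In Zfp810 the log2 change was -1.49 in RNA and -0.61 in the promoter mark. RNA reads and H3K9ac reads are unlike measures, so the sizes of these changes cannot be compared directly. Zfp740, by contrast, fell in RNA while its main promoter region gave -0.06, and Zfp281 rose while its promoter region gave 0.01.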

How the data were processed

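RNA and H3K9ac were compared between HFD and CD livers of mice. The authors deposited a table for each assay. Per the file headers, it holds raw read counts, log2 FPKM (genes) or log2 CPM (regions), and the authors' own test as a p-value, a false discovery rate and a log2 fold change, with each region's distance to the nearest start site. Coordinates are in mm10, named by the submitters' processing notes. Aligner, peak caller, read counter, strand setting and the kind of test used by the authors were not given in the sources used, so overlapping and antisense genes cannot be told apart. Blank lines (4999) of the RNA table were left out, 72 repeated H3K9ac lines were not counted again, and 0 value columns were unmatched. The RNA column headings carry numbers whose meaning is not stated and that differ between the diets, so whatever they mark cannot be told apart from diet. Whether a letter names the same animal in both assays is not stated either.

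All counts were fitted per assay with edgeR 4.0.16 in R 4.3.3: TMM scaling, filterByExpr (0 genes and 0 regions removed), glmQLFit and glmQLFTest with diet as the only term, two-sided, Benjamini-Hochberg over 12334 genes or 57499 regions, threshold 0.05. Every adjusted p in the text comes from this test unless another is named. SE is the absolute log2 change divided by the root of the F statistic. CPM are TMM scaled. A gene with several promoter regions is represented by the one with the highest mean log2 CPM. On counts simulated from these libraries, with 100 features changed 2-fold and 100 changed 1.5-fold, the RNA test on 12334 genes recovered 88% and 33%, and the H3K9ac test on 57499 regions 46% and 19%, so modest changes could be missed. The changed features were drawn from all features, and the simulated spread followed only its trend with level. Zfp genes had a median mean count of 199.6 per RNA library, against 537.3 over all genes. Recovery among Zfp genes alone was not measured. Libraries of a diet differed from each other beyond sampling noise, with a chi-square per degree of freedom of at least 32.01 in RNA and 1.495 in H3K9ac. P-values test the diet difference against the spread between these livers.

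Genes were named by rule: those past the threshold in either assay, the 6 with the smallest p in each direction, the 5 highest and 5 lowest levels, the 5 strongest promoter marks, up to 5 without a promoter region, 4 role lists, and those with an unadjusted p under 0.05 in both assays. Members and lists were chosen with earlier results of these data known. Alternatives were RLE factors, library totals, DESeq2 1.42.0, other filters on low counts, leaving out each library, the letter as a block, and distances of 500 and 2000 bases.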

Additional observations from a re-analysis of the deposited data

Results flagged for a closer look

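In 136 groups of 4 RNA libraries (68 named Zfp genes in 2 diets), 3 held a value far from the other 3 libraries by Dixon's criterion, a gap above 0.829 of the group's range. Chance alone gives about 1 such value in 20 groups. The RNA of Zfp36, which encodes tristetraprolin, was 154.1 CPM in CD D, against 68.1 to 73.24 CPM in the other CD livers. The RNA of Zfp524 was 8.073 CPM in CD B, against 8.978 to 9.126 CPM in the others. The RNA of Zfp710 was 18.22 CPM in HFD D, against 13.9 to 14.23 CPM in the other HFD livers.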

How the results depend on the processing

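Of 37 single results over their alternatives, 381 values kept their side of the threshold, 40 lost a call and 16 gained one, and none changed direction. Against 2 Zfp genes lower and 1 higher in RNA, DESeq2 gave 8 and 3, library totals without scaling factors 4 and 0, and testing only genes at or above the median level 1 and 0, since Zfp810 lies below that level. Over all 12334 genes DESeq2 called 689 lower and 716 higher, against 449 and 448 in the main fit. Library totals gave 492 and 367 of all genes, and the test at or above the median level 273 and 270 of 6167. Leaving out 1 library at a time gave 2 to 4 lower (4 without HFD A and 4 without HFD D) and 0 to 2 higher. Among all genes, 583 were lower and 524 higher without HFD A, and 441 and 383 without HFD D. The median RNA change of -0.06 was -0.10 on library totals and lay between -0.086 and -0.038 with 1 library left out. Against 2 promoter regions lower in H3K9ac, testing only regions at or above the median level gave 1, and leaving out 1 library gave 1 to 5 (5 without HFD D). Over all 57499 regions, 892 were lower in the main fit and 1010 without HFD D. The test at or above the median level gave 583 lower of 28750. The promoter signal of Zfp genes, 0.33 log2 CPM under that of all genes (a difference of -0.33), differed by -0.40 with regions within 500 bases, and their RNA level, a difference of -1.60 in log2 FPKM, differed by -1.42 in log2 CPM. Where 1 library was left out of a group of 3 or 4, fewer samples entered the test.

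Whether the letters pair the libraries was not settled. In RNA, correlations of same-letter deviations from the diet means ran from -0.222 to 0.295 over 4 letters, and those of different letters from -0.414 to 0.368. In H3K9ac they were 0.081 and 0.09 over the 2 shared letters, small but above the -0.118 to 0.046 of different letters. With the letter as a replicate block, 0 Zfp genes were higher and 2 lower in RNA, and all genes past the threshold numbered 826 against 897. In H3K9ac the block used letters A and D alone and gave 1 promoter region lower and 2 higher. Over all 56084 regions tested with that block, 790 were lower and 507 higher. Low counts limit the 5 Zfp genes of lowest level, and the limits of 3 H3K9ac libraries per diet show in the calls of Zfp872 and of the intronic regions of Zfp809, Zfp787 and Zfp444.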

Other observations

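Zinc finger genes with other family names were measured beside the Zfp genes. Among all 12334 genes 3.64% fell and 3.63% rose, the shares to set beside the counts of each family. Of 38 Zbtb genes, 3 fell in HFD and 0 rose. Zbtb16, the transcription factor PLZF, went from 12.01 ± 2.28 to 4.87 ± 1.57 CPM (SD, n = 4 each; log2 change -1.30, adjusted p = 0.00756), Zbtb21 from 16.6 ± 2.98 to 7.83 ± 0.47 (-1.08, adjusted p = 0.00125) and Zbtb7c from 5.84 ± 2.75 to 1.29 ± 0.89 (-2.18, adjusted p = 0.0147). Of 13 Klf genes, 3 rose and 0 fell. Klf15, a regulator of amino acid use and gluconeogenesis, went from 91.9 ± 10.7 to 195 ± 55.7 CPM (1.08, adjusted p = 0.00672), Klf13 from 36.0 ± 2.54 to 77.3 ± 25.4 (1.10, adjusted p = 0.00717) and Klf1, the erythroid factor, from 1.68 ± 0.41 to 3.41 ± 1.09 (1.03, adjusted p = 0.0481).

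Of 23 genes whose Zfp name ends in a letter, 1 fell and 1 rose, beside 3.64% and 3.63% of all genes. Zfp36l1, a relative of Zfp36 that also promotes the decay of AU-rich messenger RNAs, went from 291 ± 30.2 to 152.7 ± 19.95 CPM (log2 change -0.93, adjusted p = 0.00116), while Zfp36 itself gave -0.26 (adjusted p = 0.711). Zfp385b went from 12.9 ± 2.05 to 20.6 ± 3.38 CPM (0.67, adjusted p = 0.0243). Among 9 Zkscan, 8 Zscan and 15 Zc3h genes 0 passed the threshold in edgeR's quasi-likelihood test or in DESeq2, which called 1405 of all 12334 genes. Of the Zc3h genes 3 had an unadjusted p under 0.05 in edgeR's test, against 20.4% of all genes. Whether these families differ from the Zfp genes in their share of changed members was not tested.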
